A study of Mus musculus with 5 samples.

Results

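The genes described here encode the proteasome, its assembly factors and its alternative caps. They are the 49 genes whose symbol is Psm followed by one of the letters a to g and a number, of 32285 genes in the count tables. Of these, 31 encode subunits of the standard particle: 14 of the core and 17 of the regulatory cap. They were followed in nuclei in which Ttn, the gene of the giant sarcomere protein titin, made at least 1% of the gene UMIs (unique molecular identifiers, one per captured RNA molecule), called Ttn nuclei below. The study read RNA and open chromatin in the same nuclei of mouse hindlimb muscle dissected free of skin and bone, with 1 library to each of 5 groups. Wild-type (WT) C57bl6n groups were E14.5 embryos (56 pooled hindlimbs), E18.5 fetuses (14), pups at postnatal day 5, P5 (8), and adults aged 8 weeks (4). The fifth library came from 26 pooled E18.5 hindlimbs of Cacna1s-/- C57bl6n mice (KO), in which an inserted cassette removes the coding region of the gene for the pore subunit of the muscle calcium channel that triggers contraction. Nuclei sorted as positive or negative for PCM1, a protein of the envelope of myonuclei, were mixed in equal volumes, so the share of muscle nuclei in a library was set at the bench. Because a group was 1 library of pooled animals, replicates could not check any difference, no test was made, and every interval below is a 95% interval that covers counting error only.

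The proteasome is the chamber in which cells degrade proteins tagged with ubiquitin. Its core is a barrel of stacked rings of alpha and beta subunits, with the cutting sites inside on the beta subunits Psmb5, Psmb6 and Psmb7. A cap on the end of the barrel, built from a base with a ring of ATPases and from a lid, recognizes the ubiquitin chain, removes it and feeds the protein in. In skeletal muscle the ubiquitin-proteasome pathway is best known for breaking down sarcomere proteins in atrophy, when the ubiquitin ligases Fbxo32 (atrogin-1) and Trim63 (MuRF1) are induced. The transcription factor Nfe2l1 is known to drive proteasome genes through the antioxidant response element, and Psmb8, Psmb9 and Psmb10 replace the standard cutting subunits in immune cells or after interferon.

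Some members' promoters are shown because their genes had the largest differences across stages or carry the motifs that a search found. The RefSeq table of mouse promoters (build GRCm38.p6) held windows of 300 bases, from 250 before to 50 after the gene start, for 41 of the 49 members, and 27025 genes in all. Missing were Psma8, Psmb1, Psmb2, Psmb7, Psmc3, Psmd3, Psmd7 and Psmg2. Below, Psmb5 and Psmb6 (both cutting subunits), Psmb4 (a beta subunit without cutting site) and Psmd11 (a lid subunit) are given as the bases just before the start. Psme4, the gene of the alternative cap PA200, is given as the 30 bases that end with its match. Capitals mark a match to TGACNNNGC, the antioxidant response element, or to CCGGAAG, the core of sites for ETS-family factors, on either strand.
Psmb5, minus strand, chr14:54618023-54618145: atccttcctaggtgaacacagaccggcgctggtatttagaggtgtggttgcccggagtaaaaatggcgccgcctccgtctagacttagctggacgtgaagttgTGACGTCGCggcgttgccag
Psmb6, plus strand, chr11:70525207-70525356: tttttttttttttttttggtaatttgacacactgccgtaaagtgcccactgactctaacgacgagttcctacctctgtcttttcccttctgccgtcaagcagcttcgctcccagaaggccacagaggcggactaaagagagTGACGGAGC
Psmb4, minus strand, chr3:94886962-94887108: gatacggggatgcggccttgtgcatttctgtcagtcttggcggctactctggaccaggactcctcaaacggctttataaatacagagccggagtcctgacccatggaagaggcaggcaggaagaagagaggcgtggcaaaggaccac
Psmd11, plus strand, chr11:80428465-80428614: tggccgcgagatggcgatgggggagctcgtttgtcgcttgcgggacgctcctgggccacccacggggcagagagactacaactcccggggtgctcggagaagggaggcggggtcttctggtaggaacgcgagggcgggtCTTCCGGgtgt
Psme4, plus strand, chr11:30771747-30771776: gaacctcccggcgctgcggctGCAGCGTCA

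The capitals of Psmb5 and Psmb6 begin 47 and 9 bases before the RefSeq start, and those of Psme4 lie across it and inside the annotated gene model. TGACNNNGC was in 6 of the 41 member windows (14.6%), those of Psmb5, Psmb6, Psmc6, Psmd12, Psmd9 and Psme4, and in 14.0% of all windows, so the members held it about as often as other genes. CCAAT, the box bound by NF-Y, was in 14 of 41 (34.1%), against 41.1% of all windows, with 6 of 11 core and 4 of 14 cap windows. CCGGAAG was in 14 of 41 (34.1%) and in 9.93% of all. It was mostly in the cap, with 9 of 14 windows (64.3%; Psmc1, Psmc2, Psmc6, Psmd2, Psmd4, Psmd6, Psmd11, Psmd12 and Psmd13) against 1 of 11 core windows (Psma6). GGGCGG, the GC box, was in 23 of 41 (56.1%) and 38.2% of all. TATAAA was in 4 of 41 (9.76%) and 15.7% of all, with Psmb4 among them, and TGACGTCA, the cAMP response element, in 0 of 41 and 2.03% of all. All 6 motifs were searched on both strands and matches to different motifs may share bases. All but TGACNNNGC and CCAAT were added after expression values had been seen. A match is a description of the letters, and no binding was measured.

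Filters on gene UMIs, mitochondrial share and ATAC counts kept 4812, 4261, 3747, 5106 and 3228 nuclei, of 4990, 4435, 3848, 5407 and 3621 barcodes, in E14.5, E18.5, P5, adult and, last, KO muscle, and this order holds for every series of 5 values below. A lower bound of 400 ATAC counts, which was tried as an alternative, would leave 3966, 3927, 3389, 4768 and 2731. The numbers of nuclei that the study counts after its filters are not these, and for KO it counts more nuclei than the table used here has barcodes. Of the nuclei kept, 1867, 1579, 1733, 4429 and 987 were Ttn nuclei, with 10156121 to 19758491 UMIs a library and medians of 4877, 6976, 6438, 3356 and 10333 UMIs per nucleus. Between 5 and 54 Ttn nuclei a library lay just above the cut, at 1 to 1.1%. The 8 muscle markers summed to 38499 to 118923 CPM (UMIs of a gene per 1000000 gene UMIs) in Ttn nuclei and to 388 to 1710 CPM in nuclei with Ttn under 0.1%, the other nuclei. Markers of other cells were not absent from Ttn nuclei: the 8 mesenchymal markers summed to 281, 1108, 1141, 44.9 and 530.2 CPM, and the 6 macrophage markers to 7.68, 57.9, 314, 38.6 and 53.7 CPM. Of the last sums most was Mrc1 after E14.5, with 294 CPM at P5, where it was the one marker of that list higher in Ttn nuclei than in the others (205 CPM). The other 5 summed to 4.43, 8.76, 20.5, 2.38 and 21.2 CPM in Ttn nuclei and to 25.1, 83.5, 119.6, 86.4 and 144 CPM in the other nuclei. All 8 and all 6 were above 0 in every library. The 7 progenitor markers summed to 437, 174, 79.2, 16.3 and 337 CPM in Ttn nuclei and to 263, 235, 259.6, 121 and 446 CPM in the other nuclei. At E14.5 their sum was thus higher in Ttn nuclei, with 4 of the 7 genes higher and 3 lower. What part such RNA has in the ratios of E18.5 over E14.5 was not tested. As an alternative chosen after seeing the data, Ttn nuclei with at least 0.5% of UMIs in markers of other cells were left out. The lists used were mesenchymal, tenocyte, endothelial, macrophage and adipocyte, not progenitor. This left 1865, 1496, 1533, 4421 and 976 nuclei, so few were removed except in WT at E18.5 and P5. The log2 ratio of the core sum was then 0.27 (E18.5 over E14.5), -0.05 (P5 over E18.5), 0.01 (adult over P5) and -0.15 (KO over WT), close to the values given below. With so few nuclei removed, this says little about E14.5, adult and KO. Beyond this the part of such markers in the results was not tested. Pairs of libraries shared 17 to 47 barcodes, and doublets were not removed. Cacna1s, the check of the labels, was at 207, 189, 349, 326 and 0.72 CPM (8 UMIs in KO), 262-fold lower in KO than in WT at E18.5 (133 to 607).

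In CPM, the level of the standard particle in Ttn nuclei differed little between the libraries. The summed CPM of the 14 core genes was 523, 629, 602, 613 and 564, and that of the 17 cap genes 850.1, 949, 862, 809 and 773. The highest of the 5 values was thus at E18.5 in WT for both, and no step between neighboring stages exceeded 0.27 on the log2 scale. Both statements hold for CPM only. With TMM factors, a scaling which assumes that most genes do not differ, the core came to 474, 528, 638, 914 and 469 and the cap to 770.3, 798, 914, 1206 and 642 scaled CPM, highest in adult. The core held 38.1, 39.8, 41.1, 43.1 and 42.2% of the core and cap UMIs, so its share was larger at each later WT stage (exact binomial intervals 37.3 to 38.9% at E14.5 and 42.5 to 43.7% in adult). All 31 genes were measured in every library, from 1.37 CPM (Psmb6 in adult) to 189 CPM (Psma3 at E18.5, Psmd1 in adult). A CPM is a share of all RNA counted, so lower levels of a gene and higher levels of others cannot be told apart.

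**Figure D1:**
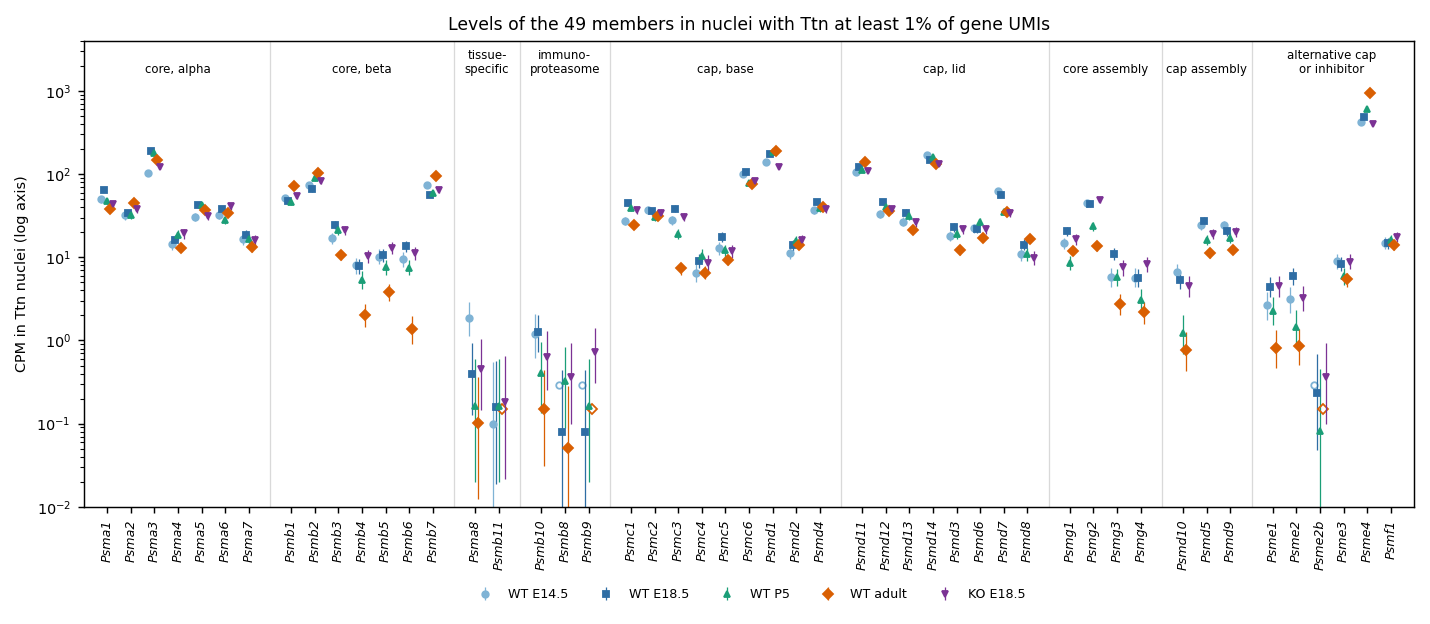
CPM (log axis) of each of the 49 genes in Ttn nuclei, grouped by role, with 1 point per library and exact Poisson 95% intervals as bars; open symbols mark genes with 0 UMIs, drawn at the floor of 3 counts. The 31 standard core and cap genes sit at 1.37 to 189 CPM, Psme4 lies above them at 400.4 to 947 CPM, and the immunoproteasome genes lie at or under 1.26 CPM.

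Single subunits of one particle had unequal levels. Because reads from introns were counted, levels were also given per kb of gene length, though whether counts scale with length was not tested. On this scale the core and cap genes ran from 0.558 (Psma2) to 8.69 CPM per kb (Psma3) at E18.5. The gene model of Psma2 spans 61.0 kb and is overlapped by AW209491 on the same strand. Psma2 and Psma3 are both subunits of the alpha ring. Psma3 was highest of the 31 at E18.5, P5, adult and KO, and Psmd7 (7.73 CPM per kb), a lid subunit that pairs with the deubiquitinase Psmd14, was highest at E14.5. In adult the lowest were Psmb6 (0.548), Psmc3 (0.594) and Psmb4 (0.706), while Psmb6 had been at 3.79 to 5.48 CPM per kb before birth. In 23 of the 49 gene models another gene overlaps, 10 of them on the same strand, and whether counting used the strand is not given in the sources used here, so reads of such partners may be included (Nek6 over Psmb7 and Slc39a13 over Psmc3, both on the other strand).

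Between the embryonic and the fetal library, no member was past 2-fold among the 43 with at least 20 UMIs in 1 of both libraries. Of all 14560 genes so measured, 17.3% were at least 2-fold higher and 9.94% at least 2-fold lower at E18.5. The core sum was 0.27 higher on the log2 scale (0.22 to 0.32) and the cap sum 0.16 (0.12 to 0.20), beside an all-gene median of 0.17. Inside the core, the alpha sum went from 279.7 to 402 CPM, a log2 difference of 0.52, whereas the beta sum went from 243 to 226 CPM, a difference of -0.10. All 7 alpha genes were higher, and of the 7 beta genes 3 were higher and 4 lower. Psma3 was the largest part of the first, with 104 CPM in the embryo and 189 CPM in the fetus, a log2 difference of 0.86 (0.75 to 0.96), and without it the alpha sum differed by 0.28 (0.20 to 0.37). Its gene model is overlapped by 3110056K07Rik on the other strand. The other 2 highest were Psmg3, a chaperone of core assembly, at 0.92 (0.47 to 1.38), and Psme2, a subunit of the interferon-induced cap PA28, at 0.91 (0.29 to 1.55). The lowest were Psmb7 at -0.38 (-0.53 to -0.23), and Psmd10 (-0.32, -0.83 to 0.19) and Psmd9 (-0.23, -0.49 to 0.03), both chaperones of the cap base, whose intervals include 0.

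At P5 the sums of the assembly factors were lower than at E18.5. Psmg1 to Psmg4, the chaperones on which core rings are built, summed to 70.6, 81.1, 40.8, 30.3 and 80.5 CPM. They were thus 1.99-fold lower at P5 than at E18.5 (1.78 to 2.22), while the core itself differed by -0.06 (-0.11 to -0.02) and the cap by -0.14 (-0.18 to -0.10) on the log2 scale. All 4 chaperones were lower, by log2 differences of -1.28 (Psmg1) to -0.90 (Psmg2), and all 4 lay under the all-gene median of -0.37. The 3 chaperones of the cap base, Psmd5, Psmd9 and Psmd10, summed to 55.1, 53.6, 34.7, 24.4 and 43.8 CPM, a log2 difference of -0.63. In the other nuclei of the same libraries the core chaperones differed by -0.40 (-0.58 to -0.23) and the cap chaperones by -0.31 (-0.45 to -0.18).

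In this comparison 0 of 43 members were at least 2-fold higher and 4 at least 2-fold lower, while 7.68% of 14528 genes were higher and 21.4% lower. Psmd10, also known as the oncoprotein gankyrin, was at 6.60, 5.29, 1.23, 0.759 and 4.50 CPM and differed by -2.11 (-3.02 to -1.28; 15 UMIs at P5 against 67). Psme2 was at 3.15, 5.92, 1.47, 0.860 and 3.24 CPM and differed by -2.01 (-2.84 to -1.25; 18 UMIs against 75). Psmg1 was at 14.7, 20.6, 8.51, 11.9 and 16.4 CPM and differed by -1.28 (-1.62 to -0.94). The fourth, Psmc3, an ATPase of the cap base, stood just at the limit, 2.00-fold lower (1.71 to 2.35), and Psme1, the partner of Psme2, just outside it, 1.93-fold lower (1.21 to 3.16). All 4 had lower values at P5 and in adult than in each of the 3 prenatal libraries. The highest ratios were those of Psmb2, a structural beta subunit, at 0.42 (0.29 to 0.56), Psme4 at 0.32 (0.28 to 0.37) and Psmd6, a lid subunit, at 0.27. With TMM factors the all-gene median moved from -0.37 to -0.04, the core and the cap turned to higher at P5 (0.27 and 0.20) and 2 members were past 2-fold, both lower. The share of all genes past 2-fold with these factors is not given here.

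Between P5 and adult, core and cap sums again differed little in CPM (log2 0.03, -0.01 to 0.07, and -0.09, -0.13 to -0.06), but the beta subunits parted. Psmb1, Psmb2 and Psmb7 were higher in adult, and Psmb3, Psmb4, Psmb5 and Psmb6 were lower. Psmb6, the caspase-like cutting subunit (gene at chr11:70525367-70527858 of GRCm38), was at 9.45, 13.7, 7.52, 1.37 and 11.3 CPM, 5.51-fold lower in adult than at P5 (3.55 to 8.80; 27 UMIs against 92). Psmb5, the chymotrypsin-like cutting subunit, was at 10.2, 10.6, 7.61, 3.80 and 12.9 CPM, 2.00-fold lower (1.46 to 2.75). Psmb7, the trypsin-like cutting subunit, was at 73.4, 56.5, 59.0, 94.4 and 64.0 CPM, 1.60-fold higher in adult, so the 3 cutting subunits did not move together. Psmb6 and Psmb5 had their lowest value in adult and Psmb7 its highest. In the other nuclei Psmb6 (6.68-fold, 1.16 to 267), Psmb4 (6.49-fold, 1.13 to 260.0) and Psmb3 (2.39-fold, 1.08 to 6.62) were also lower in adult. Their adult counts there were 1, 1 and 6 UMIs. Psmb5 differed little in the other nuclei (1.01-fold lower, 0.406 to 3.22).

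The structural subunit Psmb4 was at 7.98, 7.81, 5.32, 2.02 and 10.3 CPM, 2.63-fold lower in adult (1.74 to 4.00), and Psmb3 at 16.9, 24.4, 21.2, 10.5 and 21.1 CPM, 2.01-fold lower (1.67 to 2.43). The ATPase Psmc3 was at 27.7, 38.5, 19.2, 7.34 and 30.3 CPM, 2.62-fold lower (2.12 to 3.24), and was the only one of the 17 cap genes past 2-fold. With Psmg3 (2.12-fold, 1.47 to 3.09) and Psme1 (2.83-fold, 1.48 to 5.60; 16 UMIs against 28), 7 of 41 members were at least 2-fold lower and 0 at least 2-fold higher, against 33.8% and 8.31% of 13807 genes. Psmb3, Psmb5 and Psmg3 lay near the limit, and with a lower bound of 400 ATAC counts a nucleus they were at -0.91, -0.98 and -0.97, leaving 4 members past it. The members' median was -0.30 and that of all genes -0.40, so the members as a group were not lower than other genes. Among the higher members were Psme4 (0.63, 0.60 to 0.67), Psmd8, a lid subunit (0.62, 0.33 to 0.92), and Psmb1 (0.62). With TMM factors the all-gene median became 0.09, the core and cap differences 0.52 and 0.40, and the split of members past 2-fold 4 higher and 2 lower. The all-gene shares above are for CPM and do not apply to this split. Psmb6 was at -1.97 with TMM factors, whereas the direction given for the cap sum depends on the scaling.

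**Figure D2:**
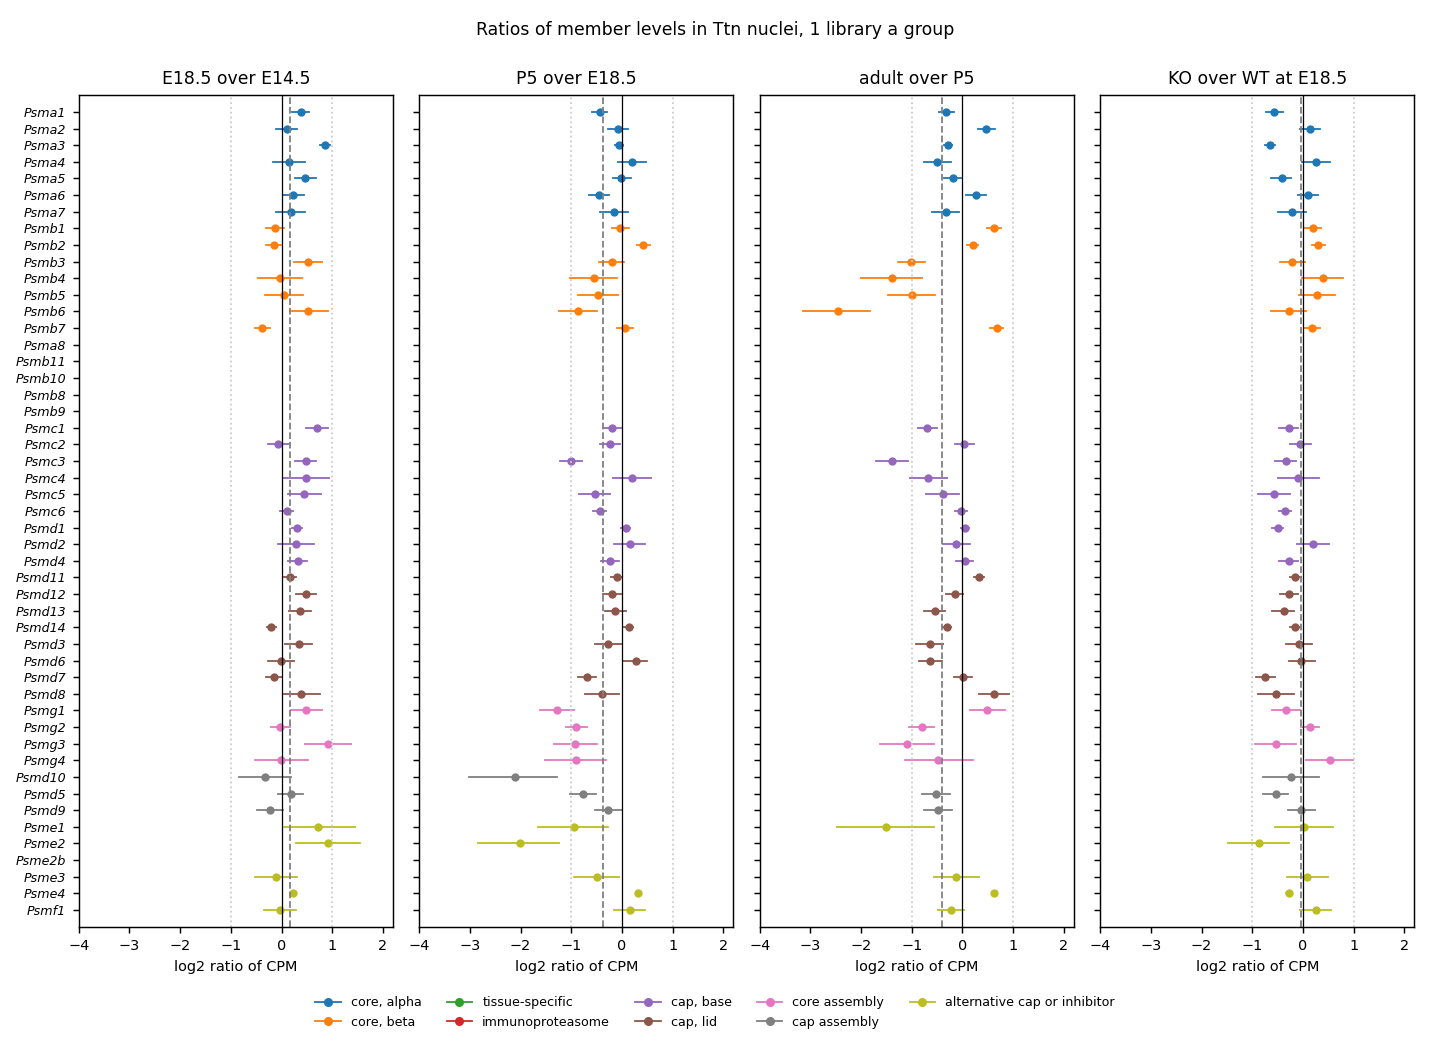
Log2 ratio of CPM in Ttn nuclei for each gene measured in a comparison (x axis) in the 4 comparisons, with exact 95% counting intervals as bars, a solid line at 0, dotted lines at 2-fold and a dashed line at the all-gene median. Points of E18.5 over E14.5 and of KO over WT stay within 2-fold, Psmd10, Psme2, Psmg1 and Psmc3 lie at or past the lower line at P5, and Psmb6 lies lowest in adult at -2.46.

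Of the lower beta subunits, Psmb4, Psmb5 and Psmb6 are genes under 10 kb, and length went with the adult ratios. Under 10 kb, 5 of 14 members were at least 2-fold lower (Psmb4, Psmb5, Psmb6, Psmg3 and Psme1), beside 42.4% of all genes of that length. At 10 to 30 kb it was 2 of 18 (Psmb3 and Psmc3), beside 26.5%, and at 30 kb or more 0 of 9, beside 34.8%. Median log2 ratios of the members were -0.57, -0.30 and 0.27 in the 3 classes and those of all genes -0.74, -0.29 and -0.34. Members of 30 kb or more, which include Psmb7 (56.1 kb), Psma2 (61.0 kb) and Psme4 (109 kb), thus had a median above that of other long genes, and the shorter members were close to theirs. Spearman's rho of length and ratio was 0.55 over the 41 members and 0.01 over all genes, given as a description with no test, since the genes share the same 2 libraries. Centred on genes of like length, an alternative chosen after seeing the data, Psmb6 stood at -1.39 and Psmc3 at -1.01. Psmb5 was at 0.07, so its lower level in adult was that of other genes as short. Before centring, Psmb6 (2.49 kb) was at -2.46, and all genes in the bin around 2.62 kb had a median of -1.29 and a lower quartile of -2.26. Psmc3 (12.4 kb) was at -1.39, and in the bin around 10.58 kb these were -0.40 and -1.18. Both thus lay only a little below the lower quartile, and many genes of like length were about as low. What part length has in these ratios was not tested beyond this.

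**Figure D3:**
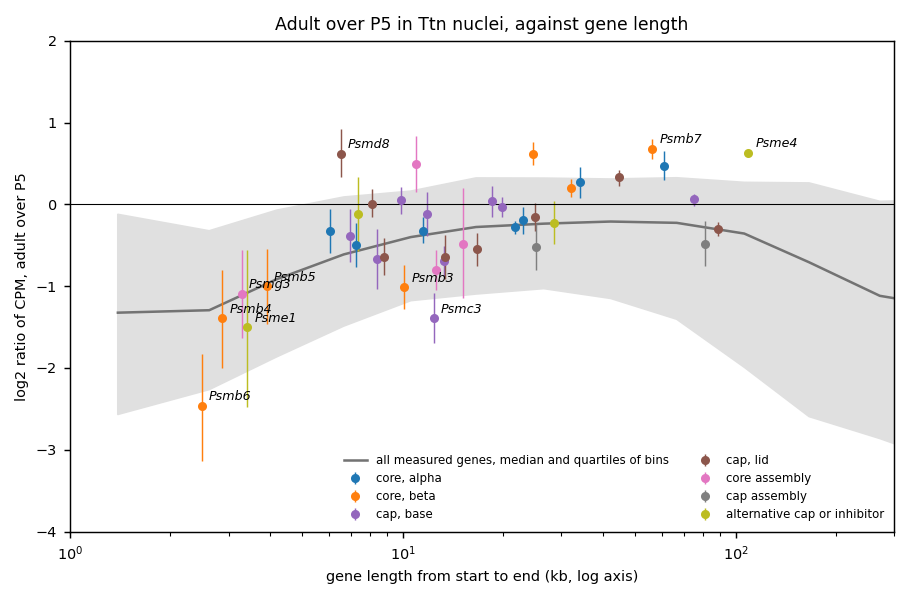
Log2 ratio of CPM, adult over P5 in Ttn nuclei (y axis), against gene length in kb (log axis), with 1 point per member colored by role, exact 95% counting intervals as bars, and the median (line) and quartiles (shading) of all measured genes in bins of length. Psmb6 and Psmc3 lie below the median of genes of their length, Psmb5 lies close to it, and Psmb7, Psmd8 and Psme4 lie above.

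Psme4 had the highest CPM of all members in every library. It encodes PA200, a cap without ATPases that is found in nuclei and is known for the degradation of acetylated histones. It was at 418, 487, 609.9, 947 and 400.4 CPM in Ttn nuclei, higher at each later stage through the 4 WT stages, and at 517, 421, 462, 380.0 and 362 CPM in the other nuclei, with no such order. Per kb it was at 3.85, 4.48, 5.61, 8.72 and 3.69 CPM, the highest member in adult and the fifth at E14.5 (its gene spans 109 kb). Thinned to 1000 UMIs a nucleus, a Psme4 UMI was in 31.2, 32.8, 42.6, 57.4 and 32.0% of Ttn nuclei (74.7, 85.4, 88.2, 82.1 and 86.5% unthinned) and in 39.4, 32.8, 35.6, 29.1 and 28.5% of the other nuclei. Thinning left out 38, 5, 77, 464 and 7 Ttn nuclei that were shallower. In adult, Ttn nuclei were 2.49-fold above the others (2.24 to 2.79). The course was not particular to Psme4: Psmd1 was also higher at each later WT stage, at 141, 174, 182 and 189 CPM in Ttn nuclei. From P5 to adult the ratio of Psmb7 was larger than that of Psme4. The gene Gm12103 overlaps Psme4 on the other strand.

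The other alternative caps were low. Psme1 was at 2.66, 4.42, 2.29, 0.810 and 4.50 CPM, and Psme3, the nuclear PA28 subunit, at 8.96, 8.29, 5.89, 5.42 and 8.82 CPM. Psme2b, a copy of Psme2 with which reads may be shared, had at most 0.360 CPM. Psmf1, whose product PI31 binds the core and was named as an inhibitor, was at 15.0, 14.7, 16.3, 13.9 and 17.5 CPM and differed by at most 0.25 on the log2 scale between neighboring WT stages and between KO and WT in Ttn nuclei. Against the other nuclei of the same library it was lower in Ttn nuclei before birth (-0.92 at E14.5, -0.59 in WT at E18.5 and -0.29 in KO).

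The immunoproteasome subunits were at or near 0 in Ttn nuclei. Psmb8, Psmb9 and Psmb10 together gave 12, 18, 11, 4 and 19 UMIs, or 1.18, 1.42, 0.900, 0.202 and 1.71 CPM. In the other nuclei they summed to 1.56, 4.00, 3.48, 12.7 and 3.07 CPM, where the adult value rests on 11 UMIs. Psmb9 made 0, 0.575, 2.13, 0 and 6.02% of the Psmb9 and Psmb6 UMIs in Ttn nuclei and 5.95, 8.43, 18.9, 87.5 (7 of 8 UMIs) and 15.8% in the other nuclei. The adult 0 is of 27 UMIs, whose exact upper limit is 12.8%. Psmb8 made 0, 0.741, 4.12, 1.32 and 2.72% of the Psmb8 and Psmb5 UMIs and Psmb10 1.59, 2.19, 0.688, 0.161 and 0.975% of the Psmb10 and Psmb7 UMIs in Ttn nuclei. In the other nuclei these were 0, 9.70, 15.4, 16.7 (1 of 6 UMIs) and 13.8%, and 1.46, 3.95, 1.17, 5.45 and 1.92%. The share was larger in the other nuclei in each pair except Psmb8 and Psmb10 at E14.5. Tap1 overlaps Psmb9 on the other strand. The tissue-specific core subunits, Psma8 of the testis and Psmb11 of the thymus, had at most 1.87 and 0.180 CPM in Ttn nuclei.

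Ttn nuclei did not hold more proteasome RNA than the other nuclei at E14.5 and did so slightly at later stages. The log2 ratio of the core and cap sum between Ttn nuclei and the others of the same library was -0.08, 0.20, 0.24, 0.27 and 0.15, from 1373, 1578, 1464, 1422 and 1337 CPM against 1450, 1369, 1237, 1181 and 1206 CPM. The median of all genes was -0.54, -0.38, -0.70, -0.56 and -0.41, and 37 of 43, 36 of 44, 37 of 42, 31 of 40 and 39 of 44 members lay above it. Few members were past 2-fold. At E14.5 it was 0 of 43 in either direction, beside 11.9% of genes higher and 32.3% lower in Ttn nuclei. At E18.5, Psmd9, a chaperone of the cap base whose long gene overlaps Hpd, was lower (-1.18), beside 14.2% higher and 29.6% lower. At P5, Psma5 of the alpha ring was higher (1.04) and Psmd9 (-1.06) and Psme2 (-2.03) lower, beside 12.9% and 39.3%.

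In adult, Psme4 (1.32) and Psmd8 (1.06, with 7 UMIs in the other nuclei) were higher and Psmd9 (-1.04) and Psmg4 (-2.08, with 8 such UMIs) lower, beside 12.5% and 36.2% of genes. In KO, Psmb5 (1.25), Psmg2 (1.10) and Psmb3 (1.02) were higher and Psma8 (-2.24, 5 UMIs in Ttn nuclei against 32) lower, beside 12.5% and 30.3%. Psmd9 was thus the one member below the 2-fold limit in 3 libraries. The cap chaperones as a sum were lower in Ttn nuclei in every library, with 88.4, 86.0, 69.3, 43.8 and 68.8 CPM in the other nuclei. Psmd10 went against the sum at E14.5 (0.59, 0.02 to 1.17) and in WT at E18.5 (0.61, 0.07 to 1.16). The core chaperones as a sum were higher in Ttn nuclei before birth, where the other nuclei held 56.6 CPM in E14.5 muscle, 55.1 in WT E18.5 muscle and 50.8 in KO muscle, and close to the others at P5 (41.7 CPM) and in adult (31.1 CPM). Psmg2 made most of this: at E14.5 it alone was higher (0.86, 0.63 to 1.09), while Psmg4 was lower (-0.77, -1.26 to -0.29) and Psmg3 (-0.35) and Psmg1 (-0.03) had intervals that include 0. In WT at E18.5 Psmg4 was again lower (-0.65, -1.09 to -0.23) beside the 3 others, which were higher. The other nuclei mix several cell types, in different proportions by stage, and only 300 of them were in adult.

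**Figure D4:**
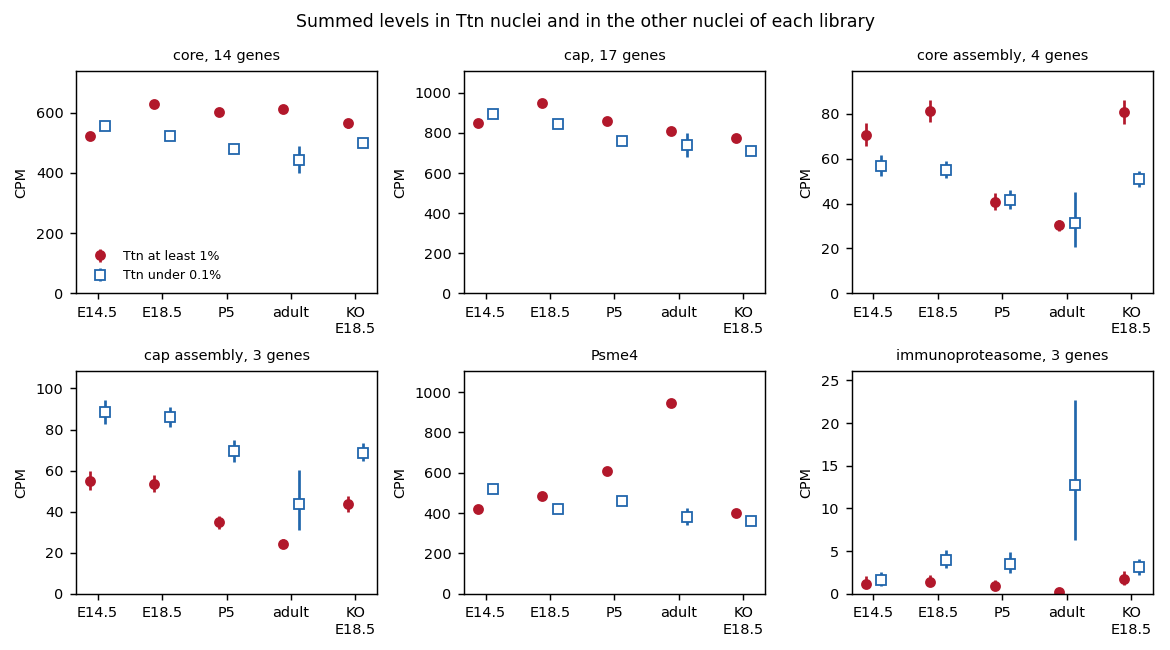
Summed CPM (y axes from 0) of gene groups, and CPM of Psme4, in nuclei with Ttn at least 1% (filled circles) and under 0.1% (open squares) of each library (x axis), with exact Poisson 95% intervals as bars. Core assembly factors sit at 70.6 to 81.1 CPM in the prenatal Ttn nuclei and at 40.8 and 30.3 CPM after birth, and Psme4 reaches 947 CPM in adult Ttn nuclei against 380.0 CPM in the others.

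The KO comparison addresses what a fetal muscle that cannot contract expresses. No member was past 2-fold in KO Ttn nuclei (0 of 43 either way, beside 6.20% of 14589 genes higher and 5.52% lower), although Psme2 was at -1.06 with a lower bound of 400 ATAC counts. The cap sum was 1.23-fold lower in KO (1.19 to 1.26; 773 against 949 CPM) and the core sum 1.11-fold lower (564 against 629 CPM), which is -0.30 (-0.34 to -0.26) and -0.16 (-0.20 to -0.11) on the log2 scale, beside an all-gene median of -0.03. Of the 17 cap genes, 2 lay above that median, and of the 14 core genes, 8.

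Inside the core the sums of the rings differed in direction, with genes of both directions in each. The alpha sum was 1.30-fold lower in KO and the beta sum 1.13-fold higher, from 309 against 402 CPM and 255 against 226 CPM. Of the 7 alpha genes 4 were lower and 3 higher (Psma2, Psma4 and Psma6, whose intervals include 0). Psma7, among the lower, had overlapping intervals of its levels, 13.8 to 18.7 CPM in KO and 16.4 to 21.2 CPM in WT. Of the 7 beta genes 5 were higher and 2 lower (Psmb3 and Psmb6, whose intervals include 0). The intervals of Psmb4 and Psmb5, among the higher, also include 0. Without Psma3, the largest part of the alpha difference, the alpha sum was 1.13-fold lower (1.07 to 1.20). Psma3 was at 121 CPM in KO and 189 CPM in WT, 1.57-fold lower (1.46 to 1.68), and Psma1 at 43.5 and 64.4 CPM, 1.48-fold lower (1.32 to 1.66). Psmb2 was at 81.5 and 66.0 CPM, a log2 difference of 0.30 (0.17 to 0.44), and Psmb4 at 10.3 and 7.81 CPM (0.39, -0.01 to 0.80). The KO values of the alpha and the beta sum lay closer to those of E14.5 (279.7 and 243 CPM) than to those of WT at E18.5, as levels set side by side. The ratios of KO and of E18.5 over E14.5 share the WT E18.5 library, so they are not independent.

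In the cap, Psmd7 had the lowest ratio, with 33.9 CPM in KO and 56.7 CPM in WT, 1.67-fold lower (1.48 to 1.90), followed by the ATPase Psmc5 (1.49-fold, 1.19 to 1.86). Psmd1, a large scaffold subunit of the base, was at 123 and 174 CPM, 1.42-fold lower (1.32 to 1.52). Psmd14, the deubiquitinase that releases ubiquitin before degradation, was at 132 and 148 CPM, 1.12-fold lower (1.04 to 1.20). Among the rest, Psme2 had the lowest ratio of all members at -0.87 (-1.48 to -0.28; 36 UMIs against 75), Psmg4 the highest at 0.53 (0.07 to 0.99), and Psme4 was 1.22-fold lower. The members' median was -0.21. In the other nuclei the cap sum was likewise 1.20-fold lower in KO (-0.26, -0.30 to -0.22), with 2 of 17 genes above the median, while their core sum differed by -0.07 (-0.11 to -0.02). Psmd7 (1.94-fold, 1.73 to 2.17), Psmc5 (1.94-fold, 1.56 to 2.41) and Psmd1 (1.37-fold, 1.28 to 1.47) were lower in KO there too. Psmd14 was 1.10-fold higher there (1.04 to 1.16).

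In the other nuclei Psmb6 (-0.94), Psmb4 (-0.72), Psmb3 (-0.62) and Psmb5 (-0.58) had lower values in KO than in WT, with intervals below 0, whereas in Ttn nuclei Psmb6 (-0.28, -0.62 to 0.06) and Psmb3 (-0.21, -0.46 to 0.04) had intervals that include 0 and Psmb5 was at 0.28 (-0.07 to 0.63). The difference between the nuclei was not tested. KO Ttn nuclei were deeper than those of WT (medians of 10333 and 6976 UMIs) and differed in markers of other cells. The mesenchymal list summed to less in KO (530.2 and 1108 CPM), as did the tenocyte list (72.8 and 199 CPM), whereas the progenitor (337 and 174 CPM), endothelial (86.7 and 36.4 CPM) and adipocyte lists (48.4 and 12.5 CPM) summed to more. Their part in these ratios was not tested.

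Some other genes of the pathway had larger ratios than any proteasome gene. Of 8 ubiquitin ligases of muscle, 4 were at least 2-fold higher and 0 lower in adult than at P5, beside 8.31% and 33.8% of all genes. Fbxo32 was at 16.6, 10.3, 26.3, 464 and 48.7 CPM, a log2 difference of 4.14, and Fbxo40, a ligase of the insulin receptor substrate, at 8.57, 10.7, 36.4, 249.5 and 12.1 CPM (2.78). Trim63 was at 38.9, 64.1, 94.3, 357 and 67.3 CPM (1.92), and Asb2, a cullin ligase subunit that targets filamins, at 91.9, 136, 188, 501 and 128 CPM (1.41). These 4 ligases were thus highest in adult Ttn nuclei, where core and cap in CPM differed little from P5. At the earlier steps 1 of 8 was past 2-fold at E18.5 over E14.5 (Trim32, lower, -1.34, beside 9.94% of all genes lower) and 2 at P5 over E18.5 (Fbxo40, 1.76, and Fbxo32, 1.35, both higher, beside 7.68% of all genes higher).

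Among the genes that supply ubiquitin, Rps27a and Ubb had the lowest ratios. Of 5 ubiquitin and activating-enzyme genes, 2 were at least 2-fold lower at P5 than at E18.5 (Rps27a, -1.38, and Uba1, -1.02), beside 21.4% of all genes, and 2 in adult than at P5 (Rps27a, -2.91, and Ubb, -2.73), beside 33.8%, with 0 higher in either. In so short a list the adult count is near that of all genes. Rps27a, which encodes ubiquitin fused to a ribosomal protein, and Ubb, a ubiquitin gene, lay at 77.0 and 33.0 CPM at E14.5 and at 2.88 and 2.28 CPM in adult. In the other nuclei they lay at 62.6 and 32.9 CPM at E14.5 and at 4.61 and 3.45 CPM in adult. Both have near-identical copies in the genome, so their counts are uncertain. Of the 5 genes, 4 were at least 2-fold lower in adult than at P5 in the other nuclei, beside 3232 of 13820 genes. Of 8 other genes whose products belong to or act with core and cap, 0 were past 2-fold in any of the 4 comparisons. Among them were the cap subunits Sem1 and Adrm1, Usp14 and the core chaperone Pomp. The shares of all genes higher and lower were 17.3% and 9.94% (E18.5 over E14.5), 7.68% and 21.4% (P5 over E18.5), 8.31% and 33.8% (adult over P5), and 6.20% and 5.52% (KO over WT). Txnl1 of this list was at 116 CPM at E18.5 and at 238 CPM in adult, more than 2-fold apart across both steps.

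Of 7 regulators, Nfe2l2 (1.11) was higher and Foxo1 (-1.44) lower at E18.5 than at E14.5, beside 17.3% of all genes higher and 9.94% lower. Irf1 was higher at P5 (1.36; 52 UMIs against 21), beside 7.68% of genes, and lower in adult (-1.07; 40 UMIs), beside 33.8%. Nfe2l1, the factor known for proteasome genes, was at 19.99, 36.9, 27.6, 53.0 and 37.4 CPM and past 2-fold in none of the 4. Of 7 genes that deliver ubiquitin-tagged proteins (6 measured in adult over P5), among them Vcp, an ATPase that extracts such proteins, 0 were past 2-fold in any of the 4 comparisons. The share of all genes past 2-fold in a direction ran from 5.52% to 33.8% in these comparisons. In KO, Fbxo32 (1 of 8 ligases) was 4.71-fold higher than in WT (3.89 to 5.75; 541 UMIs against 131) and the atrophy factor Foxo3 (1 of 7 regulators) 2.05-fold (1.90 to 2.22), with 0 lower in any of the 5 lists, beside 6.20% of all genes higher and 5.52% lower. Foxo1, just outside the limit, was 1.97-fold higher (1.85 to 2.10). Fbxo32 and Foxo3 were thus higher in the KO Ttn nuclei in which core and cap were slightly lower. Trim63 was at 67.3 CPM in KO Ttn nuclei and at 64.1 CPM in those of WT. In the other nuclei Fbxo32 was likewise higher in KO, at 10.6 CPM against 3.73 CPM in WT. Foxo3 (190.1 against 126 CPM) and Foxo1 (189 against 113 CPM) were higher there too.

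**Figure D5:**
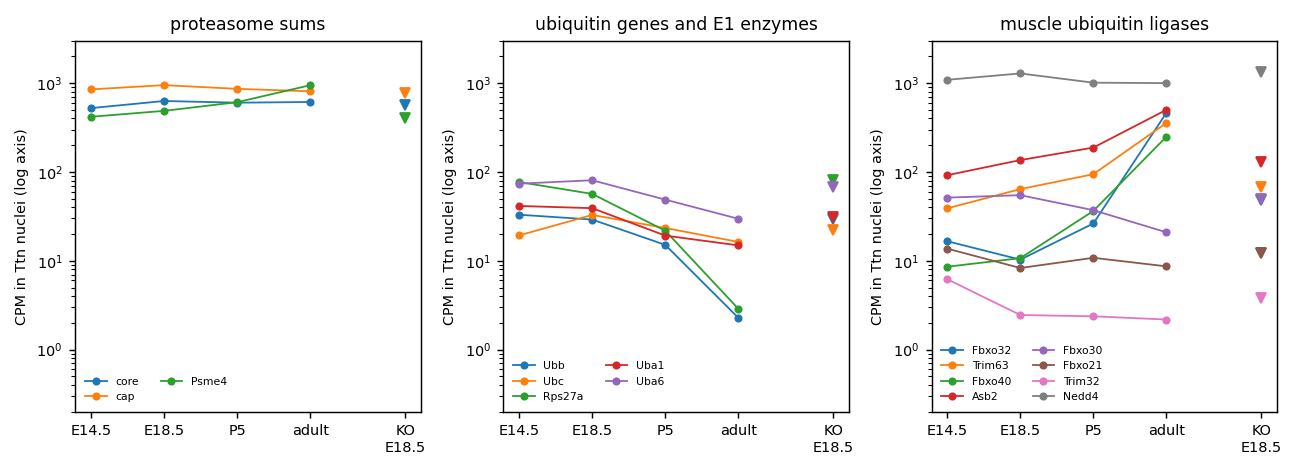
CPM (log axis) in Ttn nuclei at the 4 WT stages (circles joined by lines) and in KO at E18.5 (triangles), 1 library each with no error bars, for proteasome sums and Psme4, for ubiquitin and activating-enzyme genes, and for muscle ubiquitin ligases. Core and cap lie between 523 and 949 CPM throughout, Rps27a goes from 77.0 to 2.88 CPM between E14.5 and adult, and Fbxo32 goes from 26.3 CPM at P5 to 464 CPM in adult.

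Open chromatin at the members' starts was read in the same nuclei. A peak within 500 bases of the gene start was called for 45, 45, 45, 46 and 45 of the 49 members and for 31 of the 31 core and cap genes in every library, beside 85.4, 87.9, 85.5, 85.4 and 85.2% of 15320 expressed genes. Without a peak in every library were Psma8, Psmb10 and Psme2b, and Psmb11 had one only in adult. Psmb8 and Psmb9, nearly without RNA in Ttn nuclei, did have a peak in each library, and peaks were called on all nuclei of a library. Over the peaks of core and cap, the ATAC counts of Ttn nuclei came to 1370, 1327, 1494, 1469 and 1424 CPM of all their ATAC counts, over 29.4, 31.1, 29.7, 29.4 and 29.4 kb of peaks. That is 46.6, 42.6, 50.2, 49.9 and 48.5 CPM per kb, lowest at E18.5, where the RNA sums were highest. The median over expressed genes was also lowest at E18.5 (37.5, 36.2, 38.7, 36.5 and 37.9 CPM), so this rank was not particular to the members. That library had the most called peaks (91265, against 61874 to 81124 in the others), and its Psma6 peak spanned 3548 bases. At Psmb6, whose RNA was 5.51-fold lower in adult than at P5, the ATAC signal was 55.8, 46.0, 51.8, 61.1 and 52.7 CPM of ATAC counts, highest in adult. At Psme4 it was 34.5, 28.6, 34.1, 38.4 and 32.7 CPM.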

How the data were processed

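RNA and open chromatin were measured in single nuclei of 5 libraries with the 10x Genomics multiome assay. The deposited files hold whole-number counts, UMIs for genes and ATAC counts for peaks, made by the authors for each library with Cell Ranger ARC 2.0.0 on mm10 (per the submitters' processing notes), with no normalization. Strand handling is not given in the sources used here. Gene lengths and overlaps come from GENCODE vM21 models of GRCm38.

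Nuclei with over 400 and under 25000 gene UMIs, a mitochondrial share below 10% and fewer than 70000 ATAC counts were kept, the bounds in the methods of the study. A legend of the study adds a lower bound of 400 ATAC counts, which was run as an alternative. Doublets were not removed. UMIs were summed over nuclei with Ttn at least 1% (or under 0.1%) of gene UMIs and given as CPM with exact Poisson intervals. Ratios have exact conditional (Clopper-Pearson) and shares exact binomial intervals, all 95% and for counting error only. Each group is 1 library, so there was no test. A gene was measured with at least 20 UMIs in 1 of both libraries and counted as past the limit at 2-fold or more. A gene at 0 was drawn at a floor of 3 counts. The scripts were tested on simulated data.

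The text names members past 2-fold, the 3 highest and 3 lowest ratios of each comparison, the immunoproteasome pairs, the alternative caps, and up to 4 genes past 2-fold per comparison of the other lists. Further genes past 2-fold in short lists, Nfe2l1, members given as examples of a ring, and genes beside the limit were chosen after their values were seen. The members and lists were chosen with earlier results of these data known. Some genes of the other lists are not reported here and are left out of their counts. Alternatives were TMM factors (edgeR 4.0.16, R 4.3.3), other sets of nuclei, equal weight per nucleus, no minimum count, and, added after seeing the data, centring on genes of like length, leaving out nuclei with markers of other cells and the lower ATAC bound. Nuclei with Ttn between 0.1 and 1% (134 to 377 a library) were used only in alternatives. Python 3.11.15, numpy 2.4.6, scipy 1.17.1 and pandas 2.3.3 were used.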

Additional observations from a re-analysis of the deposited data

Results flagged for a closer look

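For 6 results, Ttn nuclei and the other nuclei of the same libraries went in opposite directions, with both intervals clear of 0. The difference itself was not tested, since each group is 1 library. From E14.5 to E18.5, Psme4 had a log2 ratio of 0.22 in Ttn nuclei and -0.30 in the others, and the lid subunit Psmd11 had 0.16 and -0.12. From P5 to adult, Psme4 had 0.63 and -0.28, the beta subunit Psmb2 0.20 and -0.49, and the alpha subunit Psma5 -0.19 and 0.75, where the other adult nuclei were 300. In KO against WT at E18.5 the deubiquitinase Psmd14 had -0.16 and 0.14.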

How the results depend on the processing

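Pooled over the alternatives, 75 of the comparisons' values kept their size and 22 moved. Of the single members' ratios 200 kept theirs, 31 moved and 1 turned. How many moved depended on the kind of alternative. Of 29 members' ratios, TMM factors moved 12, and centring on genes of like length moved 16 and turned 1. Equal weight per nucleus moved 3, and with each of the other sets of nuclei all 29 kept their size. With TMM factors the core and cap log2 ratios became 0.16 and 0.05 (E18.5 over E14.5), 0.27 and 0.20 (P5 over E18.5) and 0.52 and 0.40 (adult over P5), so that both turned to higher at P5 and the cap turned to higher in adult, and 2 members were past 2-fold at P5 over E18.5. With equal weight per nucleus the adult core ratio was -0.05, and 1 member was past 2-fold at E18.5 over E14.5 and 1 in KO. In nuclei with Ttn at least 2%, 2 members were past 2-fold at E18.5 over E14.5, and the KO cap ratio was -0.25. With no filter on nuclei 2 members were past it in KO. With a lower bound of 400 ATAC counts, chosen after seeing the data, 4 members were past it in adult over P5 and 1 in KO. With no minimum count it was 1, 9 and 3 at E18.5 over E14.5, P5 over E18.5 and KO over WT. Centred on genes of like length, which was chosen after seeing the data, 2 were past it at P5 over E18.5 and 3 in adult, and Psmb5 turned from 2.00-fold lower to a log2 ratio of 0.07 in adult. Against all nuclei with Ttn under 1%, the log2 ratio of core and cap in Ttn nuclei was 0.16 at E18.5 and 0.09 in KO. Leaving out nuclei with markers of other cells, also chosen after seeing the data, moved 0 of the 29 members' ratios. It removed few nuclei except in WT at E18.5 and P5. Shares of all genes past 2-fold are not given for the alternatives, so their counts of members have no share beside them. The causes of the shifts between settings were not tested. No paired analysis was possible because each group is 1 library, and no replicate could be left out. Members under 20 UMIs, the immunoproteasome genes among them, are limited by depth.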
